A study of Mus musculus with 38 samples.

Results

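Transcripts of 10 ETS transcription factors were followed across B cell terminal differentiation in the mouse. The set comprised PU.1 and 9 others, and the files write their symbols in capitals (SFPI1 for PU.1, then SPIB, ETS1, ETS2, ELF1, ELF2, FLI1, ETV6, ELK3 and GABPA). Members were taken by symbol, and all 10 were found among the 11441, 20650 and 20605 uniquely named genes of the 3 kinds of RNA file. All 10 also passed the filter on low values (1 RPKM or more in at least 2 libraries) in each test. RPKM denotes reads scaled to transcript length and to the mapped reads of the library, so that levels of genes of different length can be set beside each other.

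The series holds 38 samples from C57BL/6 mice, of which 14 poly(A) RNA libraries in 7 groups of 2 were used and 24 samples were not analysed here. Differentiation was modelled by 4 days of lipopolysaccharide (LPS) culture, and cells were sorted by CD138 and by green fluorescent protein (GFP) driven from the Blimp1 locus. The gate was CD138- GFP- for activated B cells. Pre-plasmablasts had gained GFP alone (CD138- GFP+), and plasmablasts both (CD138+ GFP+). All 3 carried Blimp1(GFP/+) and Cd23(Cre/+), so that 1 Blimp1 allele was a reporter in every control as well. Blimp1-deficient pre-plasmablasts were Blimp1(GFP/fl) Cd23(Cre/+) and were sorted as CD138- GFP+ CD22hi, so that genotype and the CD22 gate differ from the control pre-plasmablasts together. Cd23-Cre acts in mature B cells. In a separate experiment Blimp1(GFP/+) pre-plasmablasts, CD138- GFP+, were cultured with the EZH2 inhibitor GSK343 or with its solvent DMSO. Plasma cells (CD28+ CD138+ GFP+ Lin-) came ex vivo from Blimp1(GFP/+) mice. The labels do not say whether the 2 libraries of a group came from different mice, so p-values measure the spread between these libraries, which may be technical.

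ETS factors share a winged helix-turn-helix domain that binds DNA around a GGAA core. PU.1 and Spi-B are close relatives that act in B cells downstream of the antigen receptor and bind composite elements with IRF4 or IRF8. Ets1 is known for restraining plasma cell formation, and Blimp1, encoded by Prdm1, is a repressor for which Spib has been described as a target.

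The upstream sequences of 3 members are shown because their transcripts moved in opposite directions: Spib and Etv6 were low in pre-plasmablasts and high without Blimp1, and Ets2 was the reverse. Each is the 250 bases before an annotated start of RefSeq (GRCm38.p6), 5′ to 3′ on the gene's strand. The expression files hold no coordinates. Capitals mark matches, on either strand and allowed to overlap, to the ETS core GGAA and to GNGAAAG, the core of Blimp1 sites.
Spib, chr7:44532072-44532321 (minus strand): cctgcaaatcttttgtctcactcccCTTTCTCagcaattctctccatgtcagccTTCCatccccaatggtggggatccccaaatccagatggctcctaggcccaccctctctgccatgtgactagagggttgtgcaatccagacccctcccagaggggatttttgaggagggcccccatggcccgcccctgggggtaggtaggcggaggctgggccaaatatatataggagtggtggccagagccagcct
Etv6, chr6:134035450-134035699 (plus strand): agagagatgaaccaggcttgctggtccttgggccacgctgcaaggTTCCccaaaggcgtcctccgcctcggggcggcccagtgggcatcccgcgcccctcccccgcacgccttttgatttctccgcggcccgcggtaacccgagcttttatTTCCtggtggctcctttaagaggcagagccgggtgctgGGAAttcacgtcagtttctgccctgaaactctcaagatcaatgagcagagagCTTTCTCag
Ets2, chr16:95702157-95702406 (plus strand): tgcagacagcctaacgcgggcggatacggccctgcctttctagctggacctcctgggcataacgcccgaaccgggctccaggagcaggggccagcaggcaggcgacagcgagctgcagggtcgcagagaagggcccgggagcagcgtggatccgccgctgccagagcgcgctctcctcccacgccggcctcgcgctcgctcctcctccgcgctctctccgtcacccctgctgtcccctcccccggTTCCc
The Spib window held 1 GGAA match, 196 bases upstream of the start, and 1 GNGAAAG match, 225 bases upstream, each on the strand opposite to the gene. In the Etv6 window there were 3 GGAA matches and 1 GNGAAAG match, the latter 9 bases upstream. For Ets2 the window held 1 GGAA match, 5 bases upstream, and no GNGAAAG. Elk3, which moved in the directions of Spib and Etv6 less firmly and is not shown, had 2 GGAA matches and no GNGAAAG. Among the windows of members only those of Spib and Etv6 held GNGAAAG. Whether the motif goes with the direction of change was not tested. Of all 32851 RefSeq mouse windows of this length, 93.4% held GGAA and 19.4% held GNGAAAG. A composite ETS-IRF motif, GGAA followed after any 2 bases by GAAA, was found in none of the 9 windows of members and in 2.30% of all windows. The table matched 7 of the 10 members, all but PU.1, Ets1 and Fli1.

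Between 9188 and 10077 genes reached 1 RPKM in each library. The B cell markers Ms4a1, Cd79a and Cd79b were above 1 RPKM in every library, while Pax5 was at 0.266 and 0.117 RPKM in plasma cells. The summed RPKM of 5 plasma cell markers ran from 85.7 to 245 in activated B cells up to 23247 to 27089 in plasma cells. That sum was 3538 to 5464 in control pre-plasmablasts and 421 to 531 in Blimp1-deficient ones. Prdm1 was at 199 and 171 RPKM in the Blimp1-deficient libraries against 429 and 327 RPKM in control pre-plasmablasts; its gene-level value cannot separate the deleted allele from the reporter allele. Read depth is unknown for the 8 libraries of the main culture experiment, whose values were corrected for GC content. Relative depth in the inhibitor experiment, recovered from the steps between low values, was 0.832 to 1.008 of that of the first DMSO library.

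**Figure D1:**
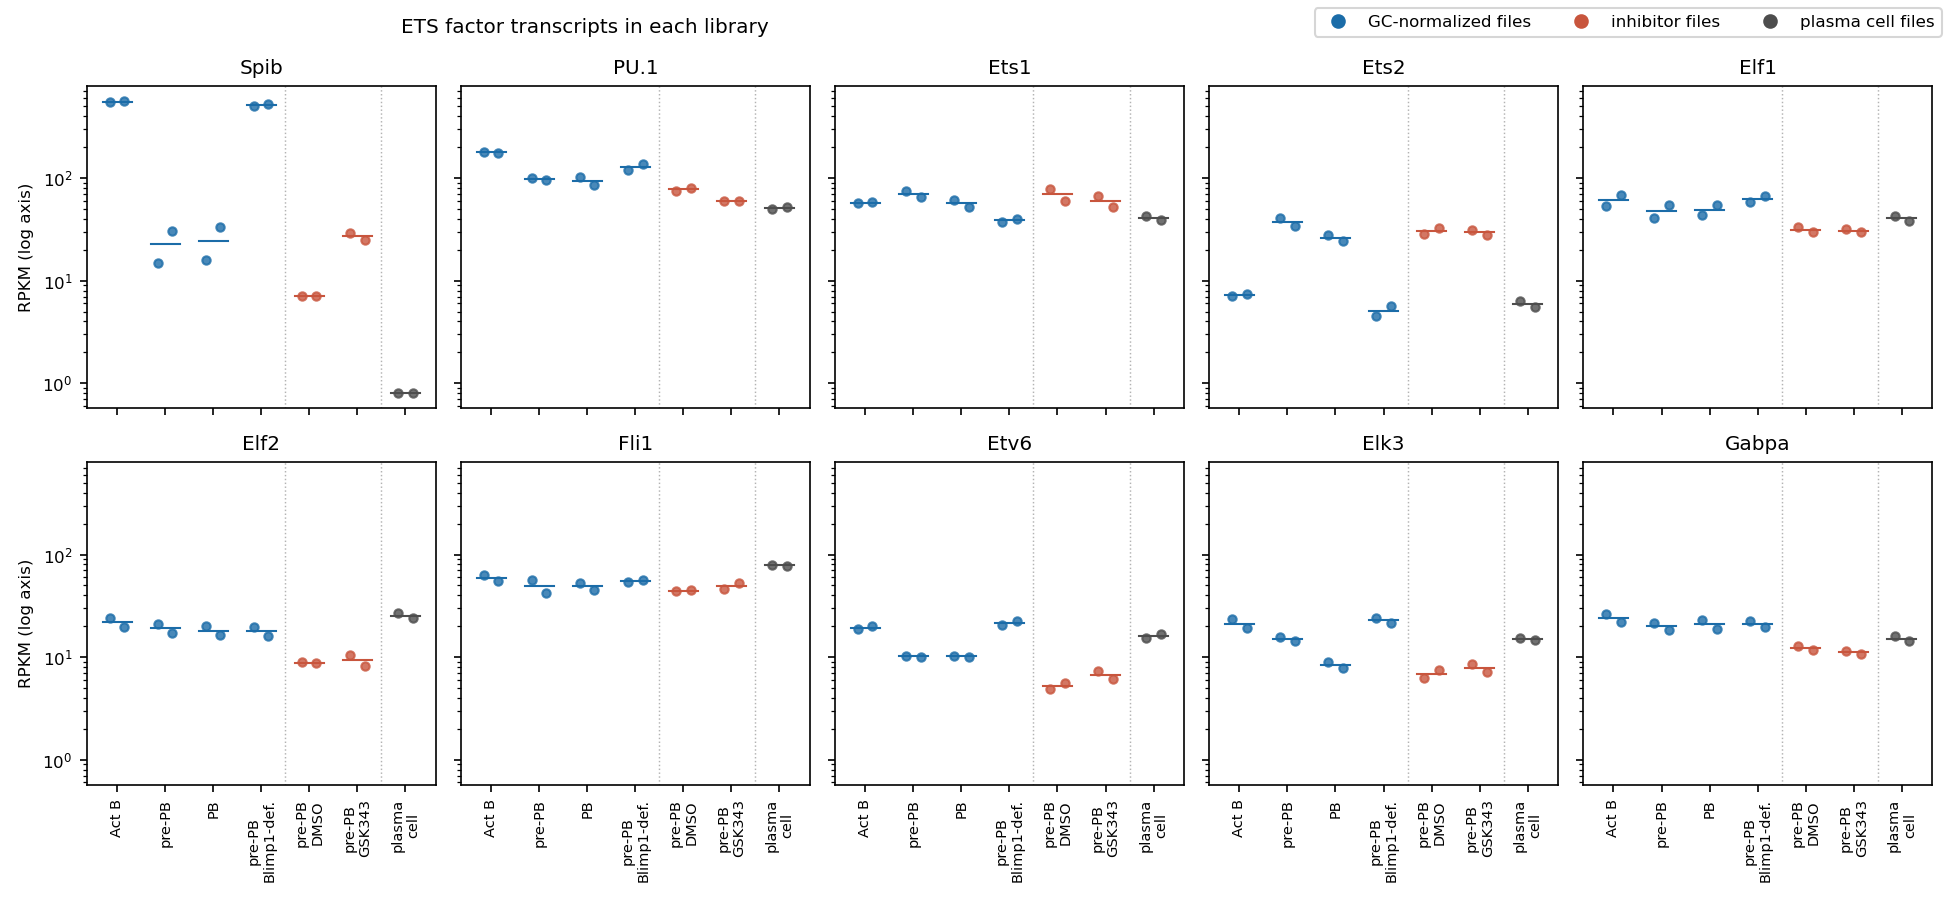
RPKM (log axis) of each of the 10 ETS factors in the 14 libraries, 1 point per library with a bar at the mean of 2; dotted lines separate the 3 kinds of file, across which levels were not tested (Act B, activated B cells; PB, plasmablasts; Blimp1-def., Blimp1-deficient). Spib spans the widest range, from 569 RPKM in an activated B cell library to 0.794 RPKM in a plasma cell library.

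Spib, which encodes the lymphoid ETS activator Spi-B, was the most abundant of the 10 transcripts in activated B cells, at 546 and 569 RPKM. It was at 14.9 and 30.2 RPKM in pre-plasmablasts and at 15.8 and 33.2 RPKM in plasmablasts. In Blimp1-deficient pre-plasmablasts it was at 499.8 and 524 RPKM. Activated and Blimp1-deficient libraries were thus both high, control pre-plasmablasts and plasmablasts both low, with no overlap between the high and the low groups. From activated B cells to pre-plasmablasts Spib fell by 4.65 on the log2 scale (SE 0.40, limma adjusted p = 0.000173), and the means differed 24.7-fold. In plasmablasts it stayed low: the log2 difference from pre-plasmablasts was 0.10 ± 0.40 (adjusted p = 0.967), and the values of the 2 groups overlap. Between Blimp1-deficient and control pre-plasmablasts Spib differed by 4.52 ± 0.40 on the log2 scale (adjusted p = 0.000306), and between Blimp1-deficient cells and activated B cells by -0.12 ± 0.40 (adjusted p = 0.891). Values of that last pair did not overlap, the Blimp1-deficient libraries being the lower. The fit gives the 4 groups a shared spread, which includes that of the low groups, so it could not resolve a difference of this size. These log2 differences are of log2(RPKM + 1), which understates changes of low genes, and the error after ± is the standard error of the fit.

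The 2 Spib values of a low group were spread more widely than those of a high one. The ratio of library 2 to library 1 was 2.03 in pre-plasmablasts and 2.10 in plasmablasts, but 1.04 in activated B cells and 1.05 in Blimp1-deficient cells. Igj, the J chain of secreted IgM, had ratios of 2.10 and 2.09 in pre-plasmablasts and plasmablasts. Unlike Spib, it also differed between libraries of the other groups, at 16.1 in activated B cells and 5.91 in Blimp1-deficient cells. PU.1 had ratios of 0.950 and 0.842 in pre-plasmablasts and plasmablasts. The pattern was not particular to Spib. Tlr9 was at 2.65 and 5.16 RPKM in pre-plasmablasts and 2.83 and 5.67 RPKM in plasmablasts. It was at 107 and 109.5 RPKM in activated B cells and 132 and 133 RPKM in Blimp1-deficient cells. Bach2 was also low in pre-plasmablasts and plasmablasts but was spread less, at 4.17 and 4.59 RPKM and at 2.96 and 4.01 RPKM.

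PU.1, a pioneer factor of myeloid and B cells that binds the same core as Spi-B, changed less. It was at 180.1 and 176 RPKM in activated B cells, 100.2 and 95.2 RPKM in pre-plasmablasts and 102 and 86.2 RPKM in plasmablasts. Blimp1-deficient libraries lay between, at 120.0 and 137 RPKM, and overlapped with no other group. PU.1 fell by 0.86 on the log2 scale into pre-plasmablasts (SE 0.11, adjusted p = 0.00109) and by 0.92 into plasmablasts (SE 0.11, adjusted p = 0.000644), with a difference between those of -0.06 ± 0.11 (adjusted p = 0.913). Against control pre-plasmablasts the Blimp1-deficient value was higher by 0.39 ± 0.11 (adjusted p = 0.0346), and against activated B cells it was lower, at -0.47 ± 0.11 (adjusted p = 0.033). Neither of these last calls was firm: each was lost without any 1 of 6 libraries (those of the activated, control pre-plasmablast and Blimp1-deficient groups), with adjusted p from 0.0509 to 0.163 for the first and from 0.0563 to 0.157 for the second. The first was also lost with median-of-ratios scaling, at 0.26 (adjusted p = 0.146), and both were lost with only the compared groups in the fit (adjusted p = 0.0667 and 0.0621).

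Because both factors can occupy GGAA sites, their ratio within a library was also computed. Spib exceeded PU.1 in activated B cells, with ratios of 3.03 and 3.23, and in Blimp1-deficient pre-plasmablasts, with 4.16 and 3.84. In control pre-plasmablasts the ratios were 0.149 and 0.318, and in plasmablasts 0.154 and 0.385. PU.1 was therefore the more abundant of this pair in every library of the latter groups.

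**Figure D2:**
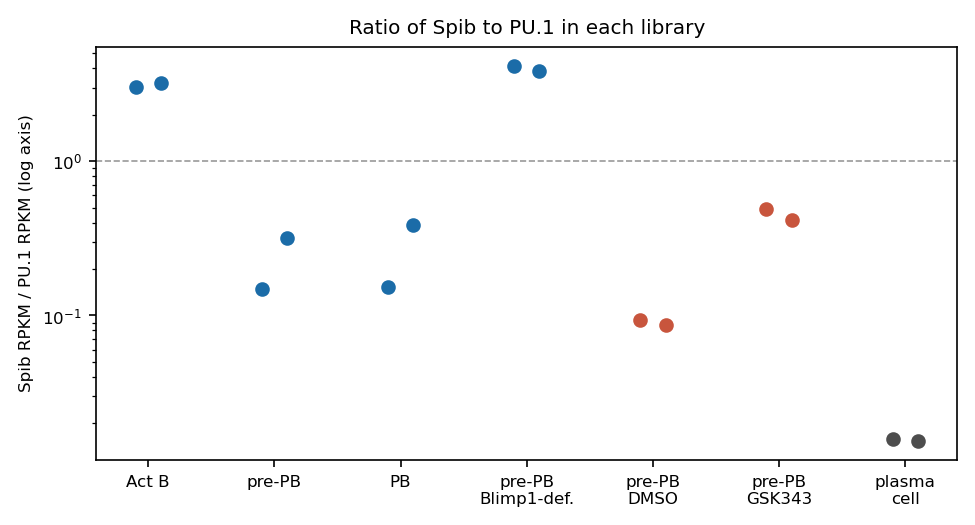
Ratio of Spib RPKM to PU.1 RPKM (log axis) in each of the 14 libraries, grouped by sample type and coloured by kind of file; the dashed line marks a ratio of 1. The 4 libraries of activated B cells and Blimp1-deficient pre-plasmablasts lie above the line, from 3.03 to 4.16, and the other 10 lie below it.

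PU.1 is also a myeloid gene, and myeloid markers, like PU.1 and Spib, were lower in control pre-plasmablasts and plasmablasts than in the other 2 groups; unlike either, they were highest without Blimp1. Of 12 myeloid markers these files hold 3 (Itgam, Emr1 and Tyrobp), whose summed RPKM was 23.8 to 29.9 in activated B cells, 3.89 to 4.39 in pre-plasmablasts, 0.810 to 1.99 in plasmablasts and, without Blimp1, 31.7 to 35.8; none of the 3 was at 0. Of 6 megakaryocytic and erythroid markers these files hold 2 (Hbb-b1 and Itga2b, neither at 0), whose sum was 6.76 to 13.5 RPKM in activated B cells, 1.29 to 1.59 in pre-plasmablasts, 0.665 to 0.954 in plasmablasts and, without Blimp1, 10.3 to 11.2. The part of such cells in the PU.1 and Spib results was not tested. In bulk libraries, fewer cells of a type and less RNA per cell cannot be told apart.

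By a Euclidean distance over the 8 libraries between log2(RPKM + 1) values centred on each gene's mean, Tlr9 was the nearest of 10473 genes to Spib, at 0.49. Tlr9, a sensor of CpG DNA, had mean RPKM of 108 in activated B cells, 3.90 in pre-plasmablasts, 4.25 in plasmablasts and, without Blimp1, 133. Klf2 (distance 0.87), Gbp2 (1.07) and Haao (1.21) were also among the 5 nearest. The 5 nearest to PU.1 were Pip4k2b (0.20), Add1 (0.22), Prkaca (0.23), Dcaf15 (0.23) and Tubgcp5 (0.24), all of them at their highest mean in activated B cells. This distance is not scaled to a gene's range, which was 24.7-fold for Spib and 1.89-fold for PU.1 between group means. Distances to Spib and to PU.1 therefore cannot be compared.

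Ets2, an effector of Ras and MAP kinase signalling, followed the opposite course to Spib. It was at 7.02 and 7.40 RPKM in activated B cells, 40.8 and 34.4 RPKM in pre-plasmablasts, 27.8 and 24.1 RPKM in plasmablasts and, without Blimp1, 4.54 and 5.66 RPKM. None of the 4 groups overlap: control pre-plasmablasts were highest and Blimp1-deficient pre-plasmablasts lowest, with a 7.38-fold difference of means. Ets2 rose by 2.23 ± 0.14 on the log2 scale into pre-plasmablasts (adjusted p = 5.84e-05) and differed by -2.66 ± 0.14 between Blimp1-deficient and control pre-plasmablasts (adjusted p = 6.18e-05). From pre-plasmablasts to plasmablasts its difference was -0.52 ± 0.14 (adjusted p = 0.138), and it passed when the library series was a block (adjusted p = 0.0233). Against activated B cells the Blimp1-deficient value was -0.44 ± 0.14 (adjusted p = 0.0839), and with the block it also passed (adjusted p = 0.0225). The block takes the number series in the library titles, 1 library of each series per group, as a term of the fit.

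Ets1, a lymphoid factor closely related to Ets2, was highest in control pre-plasmablasts and lowest in Blimp1-deficient ones, with a 1.81-fold difference of means. It was at 57.1 and 58.6 RPKM in activated B cells, 74.4 and 65.3 RPKM in pre-plasmablasts, 61.7 and 52.8 RPKM in plasmablasts and, without Blimp1, 37.4 and 39.9 RPKM. The Blimp1-deficient libraries were the lowest of the 8. Their difference from control pre-plasmablasts was -0.83 ± 0.11 on the log2 scale (adjusted p = 0.00157), and from activated B cells -0.57 ± 0.11 (adjusted p = 0.016). The second of these calls was lost without any 1 of the 4 libraries compared, with adjusted p from 0.0651 to 0.0896. Between activated B cells and pre-plasmablasts Ets1 differed by 0.27 ± 0.11, which did not pass (adjusted p = 0.0917) but did with the block (adjusted p = 0.022). Ets2 over Ets1 was 0.123 and 0.126 in activated B cells, 0.549 and 0.526 in pre-plasmablasts and 0.121 and 0.142 in Blimp1-deficient cells. T cells express Ets1 strongly; 3 of 8 T cell markers (Cd247, Lck and Tcf7, none at 0) summed to 11.2 to 13.2 RPKM in activated B cells, 6.35 to 9.22 in pre-plasmablasts, 6.47 to 9.07 in plasmablasts and, without Blimp1, 8.92 to 10.1. Their part in the Ets1 values was not tested.

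The ETS repressors Etv6 and Elk3 were on the side of Spib, at smaller size. Etv6, also called TEL, was at 18.7 and 20.03 RPKM in activated B cells, 10.3 and 10.05 RPKM in pre-plasmablasts, 10.3 and 10.1 RPKM in plasmablasts and, without Blimp1, 20.7 and 22.6 RPKM. Its activated and Blimp1-deficient libraries all lay above the other 4, which overlapped. Etv6 fell by 0.87 into pre-plasmablasts (SE 0.09, adjusted p = 0.000427) and was higher by 1.02 ± 0.09 in Blimp1-deficient than in control pre-plasmablasts (adjusted p = 0.000336).

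Elk3, a ternary complex factor that acts with SRF, was at 23.4 and 19.0 RPKM in activated B cells, 15.8 and 14.4 RPKM in pre-plasmablasts, 9.02 and 7.89 RPKM in plasmablasts and, without Blimp1, 24.3 and 21.3 RPKM. It stepped down at each stage with no overlap, while Blimp1-deficient and activated libraries overlapped. From activated B cells to plasmablasts it fell by 1.22 (SE 0.14, adjusted p = 0.000415). The single steps were less firm: -0.46 ± 0.14 into pre-plasmablasts (adjusted p = 0.0324) and -0.77 ± 0.14 from there into plasmablasts (adjusted p = 0.0468). The first was lost with median-of-ratios scaling (adjusted p = 0.0972), with only the compared groups (adjusted p = 0.0638) and without the first activated library (adjusted p = 0.172) or either pre-plasmablast library (adjusted p = 0.0669 and 0.133). The second was lost without any 1 of the 8 libraries of the fit, with adjusted p from 0.0632 to 0.251. Elk3 was higher by 0.56 ± 0.14 in Blimp1-deficient than in control pre-plasmablasts (adjusted p = 0.0179), a call lost without the second control library (adjusted p = 0.0852) or the first Blimp1-deficient library (adjusted p = 0.0969) and with median-of-ratios scaling (adjusted p = 0.053).

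Of the other 4 members, Elf1 and Elf2 are ELF-type factors and Fli1 is a factor of lymphoid and megakaryocytic cells. Gabpa is the DNA-binding subunit of GABP, a regulator of mitochondrial genes. Over these groups Elf1 ranged from 40.8 to 67.9 RPKM, Fli1 from 42.1 to 63.8, Gabpa from 18.5 to 26.2 and Elf2 from 15.9 to 24.2, and the highest group mean exceeded the lowest by 1.20-fold (Gabpa) to 1.32-fold (Elf1). None of the 4 passed a test in the fit without the block. With the block all 4 passed as lower in pre-plasmablasts than in activated B cells, at log2 differences of -0.35 for Elf1 (adjusted p = 0.00138), -0.20 for Elf2 (adjusted p = 0.0159), -0.28 for Fli1 (adjusted p = 0.0336) and -0.25 for Gabpa (adjusted p = 0.0062). The median difference over all genes in that comparison was -0.12, and median-of-ratios scaling moved it to -0.02. The 2 libraries differed alike in every group for Elf2: library 2 over library 1 was 0.814, 0.808, 0.813 and 0.802 in the 4 groups.

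By count, 1 member rose and 4 fell from activated B cells to pre-plasmablasts, where 20.2% of all genes rose, 28.0% fell and 48.2% passed in all, and the median log2 difference was -0.32 over members. With the block 10 passed, against 69.6% of all genes. From pre-plasmablasts to plasmablasts 1 member fell, where 1.62% of all genes fell, 0.716% rose and 2.34% passed in all; with the block 2 did, against 20.3%. Between plasmablasts and activated B cells 1 rose and 4 fell, against 21.3% and 33.9% of all genes and 55.1% in all, and with the block 9 passed, against 75.4%. In that comparison Elf1 (adjusted p = 0.0025), Elf2 (adjusted p = 0.00379), Fli1 (adjusted p = 0.0384) and Gabpa (adjusted p = 0.0184) were the calls the block added, all lower in plasmablasts. Blimp1-deficient pre-plasmablasts had 4 members higher and 2 lower than the controls, against 24.4% and 16.1% of all genes and 40.4% in all; with the block 7 passed, against 65.2%, the added one being Elf1, at 0.40 ± 0.19 (adjusted p = 0.14, and 0.000803 with the block). Against activated B cells 2 were lower in Blimp1-deficient cells, where 7.60% of all genes were lower, 10.4% higher and 18.0% passed in all; with the block 5 were, against 42.7%, the added calls being Ets2, Elf2 (adjusted p = 0.00589) and Gabpa (adjusted p = 0.0388). The shares of members called were thus near those of all genes in most comparisons. The comparisons share libraries and are not independent.

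**Figure D3:**
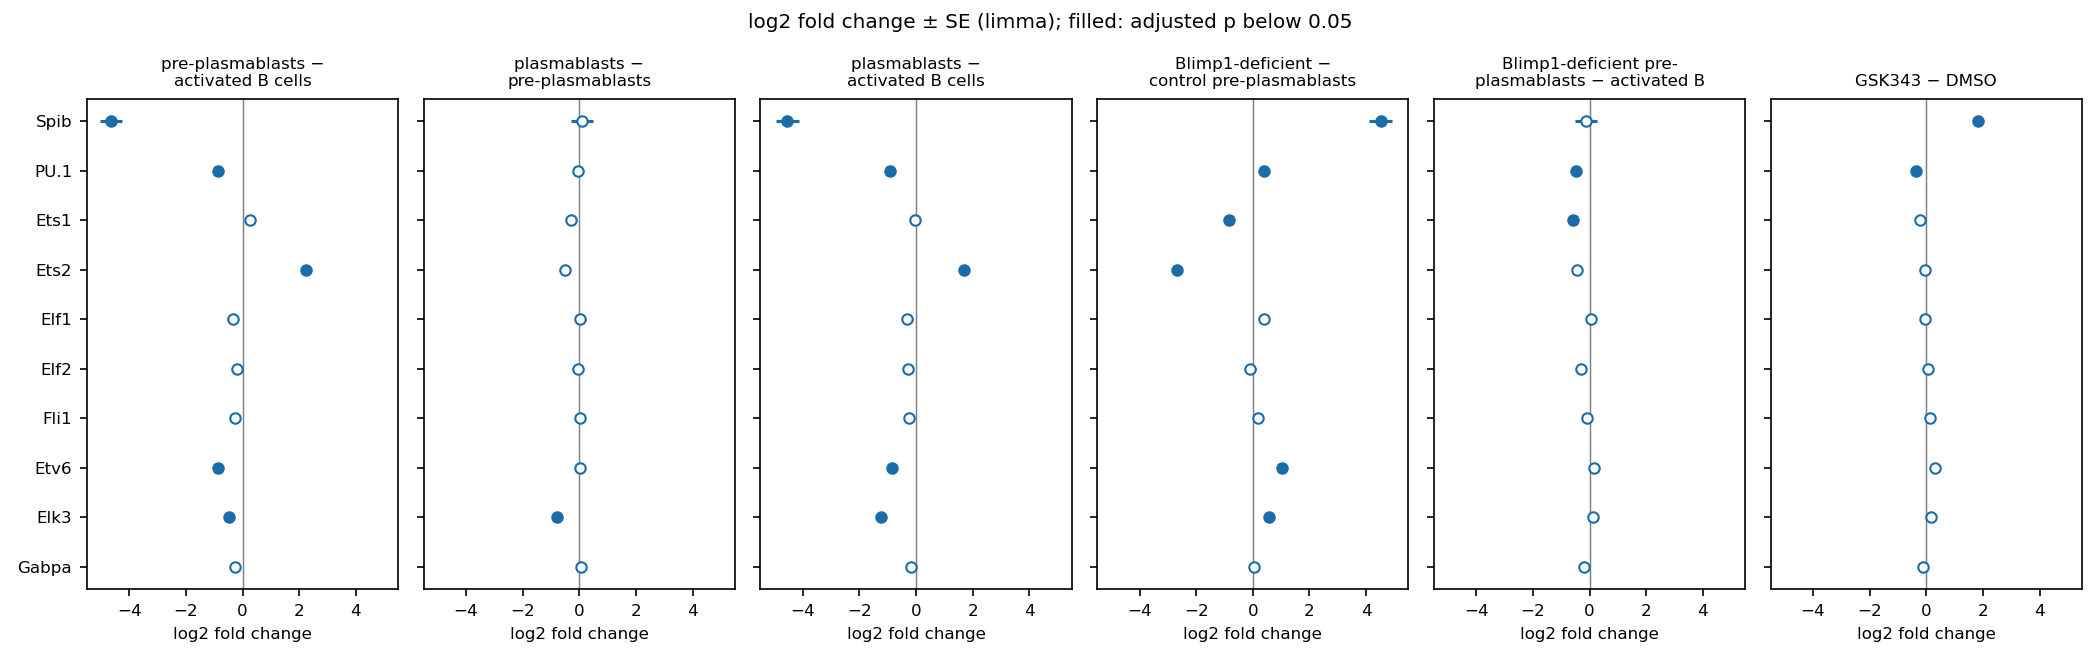
Log2 fold change of log2(RPKM + 1) with its standard error for the 10 ETS factors in 6 comparisons, 1 panel each; filled points passed an adjusted p of 0.05 over all genes tested. Spib and Ets2 stand on opposite sides of 0 in the first panel (-4.65 and 2.23) and exchange sides in the fourth (4.52 and -2.66).

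The summed RPKM of the 10 members was 1000.2 and 1014 in activated B cells and 396 and 381 in pre-plasmablasts. Without Spib the sums were 454 and 445 against 381 and 351. Spib alone made up 54.6% and 56.1% of the sum in activated B cells, 3.77% and 7.93% in pre-plasmablasts, and 58.0% and 57.7% in Blimp1-deficient cells. In pre-plasmablasts PU.1 took the first rank, at 25.3% and 25.0%, followed by Ets1 at 18.8% and 17.1%.

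**Figure D4:**
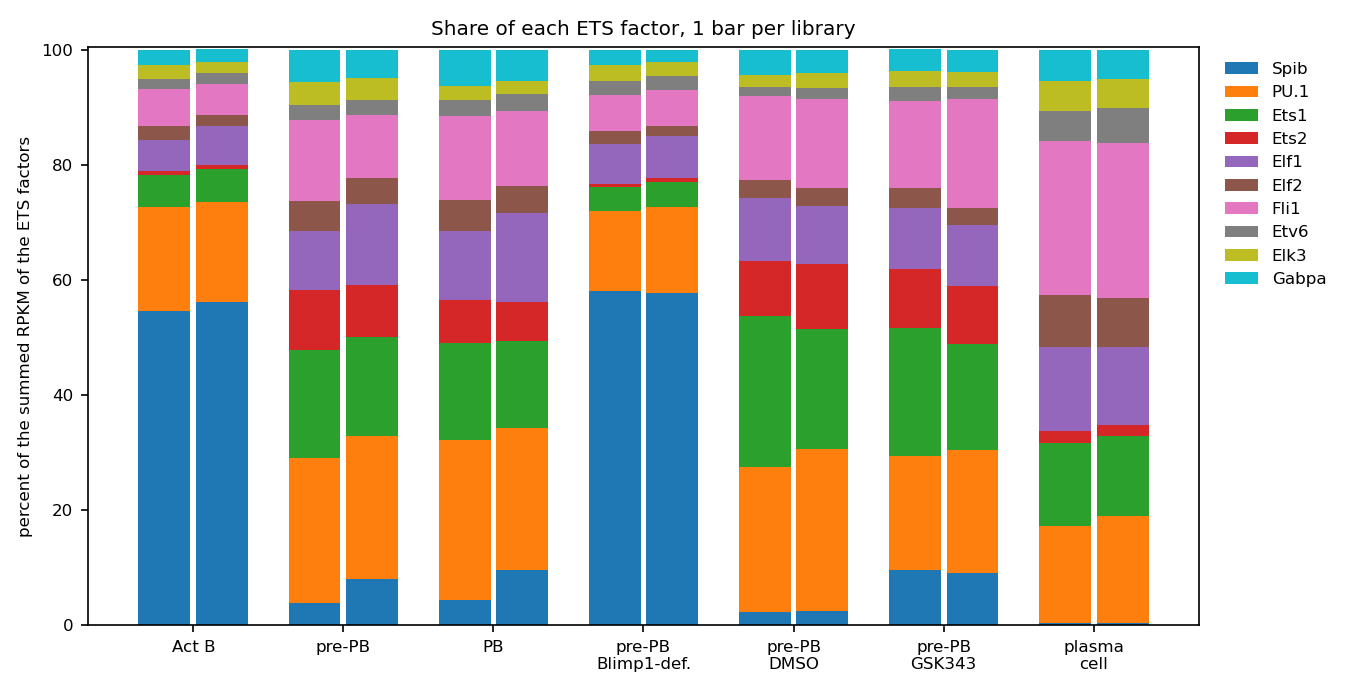
Stacked shares (percent) of the 10 ETS factors in their summed RPKM, 1 bar per library in 7 groups. Spib is the largest block in activated B cells and Blimp1-deficient pre-plasmablasts (54.6% to 58.0%) and under 10% elsewhere.

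In the inhibitor experiment Spib was at 7.02 and 7.01 RPKM with DMSO and at 29.1 and 25.1 RPKM with GSK343, with no overlap. It rose by 1.81 ± 0.11 on the log2 scale (adjusted p = 2.7e-06). PU.1 was at 75.6 and 80.9 RPKM with DMSO and at 59.7 and 59.9 RPKM with GSK343, and it fell by 0.38 (SE 0.08, adjusted p = 0.0072). The ratio of Spib to PU.1 was 0.0929 and 0.0866 with DMSO and 0.488 and 0.418 with GSK343, so that PU.1 stayed the more abundant of the pair. These 2 calls, 1 in each direction, stand beside 12.7% of all genes that rose, 5.86% that fell and 18.6% in all. Without the first or the second GSK343 library PU.1 no longer passed, at a log2 difference of -0.38 in each case. With no filter on low values neither gene passed (limma adjusted p = 0.0798 for Spib and 0.103 for PU.1). That fit called 0 of all genes, so the loss was not particular to these 2.

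The other 8 members did not pass with GSK343. Etv6, at 4.87 and 5.64 RPKM with DMSO and 7.36 and 6.07 RPKM with GSK343, did not overlap but missed the threshold (0.30 ± 0.13, adjusted p = 0.155). Ets2 overlapped, at 28.6 and 32.6 against 31.1 and 28.1 RPKM, as did Ets1, at 79.1 and 60.1 against 67.5 and 51.9 RPKM. The log2 differences of these 8 ran from -0.22 (Ets1) to 0.30 (Etv6). Markers of other cells were as follows: 12 myeloid markers summed to 3.58 to 4.31 RPKM with DMSO, where Csf1r, Csf3r and Lyz1 were at 0, and to 5.53 to 5.91 RPKM with GSK343. Plasmacytoid dendritic cells express Spib too; of their 3 markers Ccr9 was at 28.1 and 19.9 RPKM with DMSO and 60.9 and 57.8 RPKM with GSK343, Siglech was between 0 and 0.0639 RPKM, and Cd209d was at 0 in all 4 libraries. The 8 T cell markers summed to 4.16 to 4.27 and 10.2 to 12.0 RPKM, with Cd3e at 0 in all 4 libraries. Among them Lck was at 2.46 and 2.20 RPKM with DMSO and 9.47 and 8.35 RPKM with GSK343. Cd247 was at 1.78 RPKM in both DMSO libraries and at 1.68 and 1.36 RPKM with GSK343. Every other T cell marker was at 0.307 RPKM or less.

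Ex vivo plasma cells were described without a test, since their files were normalized apart from those of the cultures. Spib was at 0.794 and 0.805 RPKM there, last of the 10 members and 0.268% and 0.284% of their sum. Fli1 ranked first, at 79.4 and 77.0 RPKM, or 26.8% and 27.1% of the sum, and PU.1 second at 50.2 and 52.7 RPKM. Ets1 was at 42.7 and 39.4 RPKM, Elf1 at 43.1 and 38.3 RPKM and Elf2 at 26.6 and 24.2 RPKM. Ets2, at 6.28 and 5.59 RPKM, took 2.12% and 1.97% of the sum. In the main cultures its share was 0.701% and 0.730% in activated B cells, 10.3% and 9.01% in pre-plasmablasts and 7.57% and 6.91% in plasmablasts. Those culture values were corrected for GC content, which may not cancel in a share or ratio. In plasma cells Etv6 at 15.3 and 16.8 RPKM, Elk3 at 15.5 and 14.8 RPKM and Gabpa at 16.0 and 14.2 RPKM had overlapping values. Thus Ets2 over Ets1 was 0.147 and 0.142, and Spib over PU.1 was 0.0158 and 0.0153. Of the markers held in these files, 5 of megakaryocytic and erythroid cells summed to 28.6 to 50.6 RPKM, mainly Hbb-b1, with Pf4 at 0.192 and 0.100 RPKM; 12 myeloid ones summed to 23.0 to 32.9 RPKM with Lyz1 at 0, and 8 T cell ones to 30.7 to 40.8 RPKM, led by Tcf7. Their part in the Fli1, PU.1 and Ets1 values was not tested.

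Other genes of the ETS family were examined from a list of 16, of which 6 could be tested in the main culture experiment. From activated B cells to pre-plasmablasts 2 rose and 2 fell, where 48.2% of all genes passed. Elf4, a relative of Elf1, was at 27.5 and 31.6 RPKM and then 11.2 and 12.5 RPKM (-1.25 ± 0.13, adjusted p = 0.000359), and the ternary complex factor Elk1 fell by 0.85 (SE 0.10, adjusted p = 0.000565). Elk4, of the same subfamily as Elk1 and Elk3, rose by 0.67 ± 0.10 (adjusted p = 0.00224), and the repressor Etv3 rose by 0.25 ± 0.08 (adjusted p = 0.0406). In Blimp1-deficient against control pre-plasmablasts, where 40.4% of all genes passed, 2 were higher, Elf4 (1.18 ± 0.13, adjusted p = 0.000651) and Elk1 (0.54 ± 0.10, adjusted p = 0.00536), and 2 were lower, Elk4 (-0.39 ± 0.10, adjusted p = 0.0257) and Etv5 (-0.50 ± 0.14, adjusted p = 0.0292). Erf had a log2 difference of -0.49 ± 0.19 into pre-plasmablasts (adjusted p = 0.0747, or 0.0073 with the block). With GSK343, where 7 could be tested and 18.6% of all genes passed, 2 rose, the repressor Erf (0.69 ± 0.13, adjusted p = 0.00322) and Ehf (0.49 ± 0.13, adjusted p = 0.0217), and Etv3 fell by 0.37 (SE 0.10, adjusted p = 0.0281). Spic, the closest other relative of PU.1, was at 0 to 0.145 RPKM in the inhibitor experiment.

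Of 11 genes whose products bind DNA or act with ETS factors, 1 rose and 7 fell from activated B cells to pre-plasmablasts, against 20.2% and 28.0% of all genes; with the block all 11 passed, 2 higher and 9 lower, against 69.6%. Irf4, which joins PU.1 or Spi-B on composite elements, rose from 26.4 and 33.2 to 330.1 and 288 RPKM (3.34 ± 0.14, adjusted p = 1.76e-05). Irf8, which can take the same place, fell from 467 and 431 to 145 and 153 RPKM (-1.59 ± 0.12, adjusted p = 8.93e-05). Pax5, which recruits Ets1 to the Cd79a promoter, fell by 3.60 (SE 0.48, adjusted p = 0.00113), and Batf fell by 1.62 (SE 0.15, adjusted p = 0.000241). Without Blimp1, where 24.4% of all genes were higher and 16.1% lower, 3 were higher than in control pre-plasmablasts, namely Batf, Pax5 (2.88 ± 0.48, adjusted p = 0.00393) and Runx1, a DNA-binding partner of Ets1 (1.10 ± 0.17, adjusted p = 0.00282), and Irf4 was lower (-1.76 ± 0.14, adjusted p = 0.000218); with the block 6 were higher and 2 lower, against 65.2%. The Irf8 difference there was 0.30 ± 0.12, at 188 and 179 RPKM (adjusted p = 0.0816, or 0.0201 with the block). Thus the Blimp1-deficient libraries held Spib near the activated level but Irf8 well below it (-1.29 ± 0.12 against activated B cells, adjusted p = 0.00109). With GSK343 Batf rose (0.94 ± 0.08, adjusted p = 1.93e-05) and Irf4 fell by 0.51 (SE 0.09, adjusted p = 0.00226), among 10 that could be tested and beside 18.6% of all genes.

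A list of 20 B cell signalling and activation genes, among them genes described as targets of PU.1 or Spi-B, had 15 lower and 1 higher in pre-plasmablasts than in activated B cells, against 28.0% and 20.2% of all genes, with a median log2 difference of -1.05 against -0.12 over all genes. With the block 15 were lower and 2 higher, against 69.6% of all genes in all. This list, like that of the 11 genes above, was chosen with earlier results of these data known. The counts and medians of such lists are therefore no independent evidence. Tlr9, at 107 and 109.5 RPKM and then 2.65 and 5.16 RPKM, fell by 4.53 (SE 0.31, adjusted p = 7.63e-05). Grap2, an adaptor, fell by 2.70 (SE 0.17, adjusted p = 5.96e-05) and Syk, the antigen receptor kinase, by 1.12 (SE 0.08, adjusted p = 8.99e-05). Pik3cg, a catalytic PI3K subunit, was the 1 that rose (4.99 ± 0.36, adjusted p = 8.91e-05). In Blimp1-deficient against control pre-plasmablasts 11 were higher and 1, Pik3cg, was lower (-4.09 ± 0.36, adjusted p = 0.000312), against 24.4% and 16.1% of all genes, with a median of 0.61 against 0.12; with the block 16 were higher and 2 lower, against 65.2% in all. Tlr9 was higher by 4.82 ± 0.31 (adjusted p = 0.000102) and Syk by 0.91 ± 0.08 (adjusted p = 0.000318), whereas the Grap2 values of the 2 groups overlapped (0.03 ± 0.17, adjusted p = 0.914). Cd22 was also higher, but the Blimp1-deficient cells were sorted for CD22. Between Blimp1-deficient and activated B cells, where Spib did not pass, 6 of the 20 were lower and 2 higher, against 7.60% and 10.4% of all genes; with the block 10 were lower and 5 higher, against 42.7% in all. The lower ones included Grap2 (-2.67 ± 0.17, adjusted p = 0.000393), Bach2 (-2.38 ± 0.16, adjusted p = 0.000396) and Fcer2a, encoding CD23 (-3.64 ± 0.40, adjusted p = 0.00199). The higher ones were Ms4a1, encoding CD20 (0.79 ± 0.19, adjusted p = 0.0319), and Cd79a, a subunit of the antigen receptor (0.72 ± 0.18, adjusted p = 0.0402).

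With GSK343, 6 of the 20 rose and 3 fell, against 12.7% and 5.86% of all genes, with a median of 0.01 against 0.02 over all genes. Tlr9 was at 0.221 and 0.235 RPKM and then 1.27 and 1.30 RPKM (0.90 ± 0.13, adjusted p = 0.000889). Bach2 rose by 0.78 ± 0.14 (adjusted p = 0.00274) and Cd72, an inhibitory coreceptor, by 0.60 ± 0.11 (adjusted p = 0.003). Fcer2a fell by 0.72 (SE 0.14, adjusted p = 0.00437), the inhibitory Fc receptor Fcgr2b by 0.36 (SE 0.08, adjusted p = 0.00875) and the kinase Btk by 0.43 (SE 0.13, adjusted p = 0.0343).

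**Figure D5:**
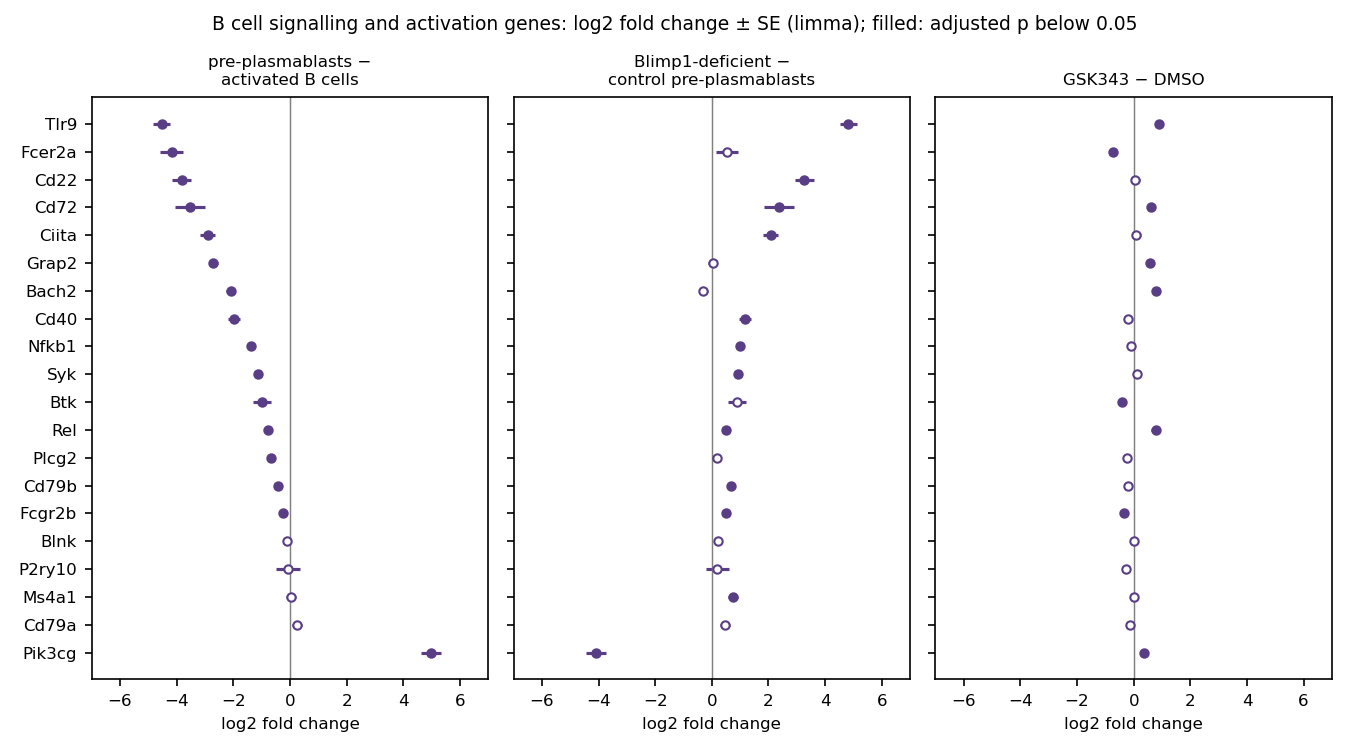
Log2 fold change with its standard error for 20 B cell signalling and activation genes in 3 comparisons, ordered by the first panel; filled points passed an adjusted p of 0.05. In the first panel 15 are lower and 1, Pik3cg, is higher, in the middle panel 11 are higher and 1 is lower, and with GSK343 6 are higher and 3 lower.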

How the data were processed

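RNA was measured in 14 libraries. The deposited files give 1 RPKM value per gene and no counts; per the labels' protocols the libraries were poly(A)-selected and strand-specific, and the submitters' processing notes name TopHat 1.4.1, HTSeq 0.5.3, DESeq 1.8.3 and build mm9, without roles. In 8 files the authors had corrected RPKM for GC content, per the file names. Genes with repeated names were left out (61, 166 and 188 names in the 3 kinds of file). In both plasma cell files 5 read-counter summary names had shifted the names against the values; with them dropped, log2 values correlated with the inhibitor libraries at 0.902 and 0.901, against 0.326 and 0.327 as deposited.

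Tests used limma 3.58.1 in R 4.3.3 on log2(RPKM + 1), with eBayes trend, two-sided, and Benjamini-Hochberg adjustment over the 10473 genes (8 libraries, 4 groups, 1 fit) or 9479 genes (GSK343 against DMSO, a fit of 4) that reached 1 RPKM in 2 libraries; a call is an adjusted p below 0.05. Fits were tested on simulated data in which each library varied independently. Deviations shared by a number series were not simulated. The title number series pair the libraries of the 8: deviations from group means correlated at 0.666 to 0.781 in the 6 pairs of groups. What a series is was not given in the sources used here, and the fit with it as a block is an alternative. RPKM values carry no depth, and 2 libraries a group limit the precision.

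The members and gene lists were chosen with earlier results of these data known. Named genes were all 10 members, up to 3 called genes of each list and direction with the smallest adjusted p, every other ETS gene past the same filter, and the 5 nearest profiles to Spib and to PU.1; 1 of the latter is not reported here. Natural killer markers (0 of 4 held in the main culture files) summed to at most 0.0541 RPKM elsewhere. Alternatives were another pseudocount (0.25), filter (5 RPKM, or none) and scaling, no trend, only the compared groups, the block, and each library left out.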

Additional observations from a re-analysis of the deposited data

How the results depend on the processing

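Of 21 calls of members, 13 held under every alternative run, among them all those of Ets2 and Etv6 and those of Spib outside the inhibitor experiment; 8 were lost under 1 alternative or more. With the library series as a replicate block the members called became 10 (pre-plasmablasts against activated B cells), 2 (plasmablasts against pre-plasmablasts), 9 (plasmablasts against activated B cells) and 5 (Blimp1-deficient against activated B cells), and 7 against control pre-plasmablasts. Over all genes the block moved the count from 245 to 2128 between plasmablasts and pre-plasmablasts, from 4234 to 6829 between Blimp1-deficient and control pre-plasmablasts, and from 1885 to 4477 against activated B cells. With only the compared groups in the fit the first became 1 and the last 1200. With 1 library left out they came to 23 to 149 and, for either activated or Blimp1-deficient library, 719 to 949; the 1763 genes called with GSK343 became 800 or 747 without a GSK343 library.

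The 1 limma call between plasmablasts and pre-plasmablasts became 0 with median-of-ratios scaling and with only the compared groups (2 at an unadjusted p under 0.05 in each), and 0 to 0 without any 1 library (1 to 3 unadjusted). Against activated B cells, Blimp1-deficient calls became 1 with only the compared groups and 0 to 2 with a library left out (2 or 3 unadjusted at 0). With GSK343 they became 0 with no filter (2 unadjusted), a limma fit in which genes at 0 in all 4 libraries enter and which called 0 of all genes, and 1 to 3 with a library left out. In plasma cells the members at 1 RPKM or more were 9, and 5 with the names as deposited. The cause was not tested beyond this.

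Scaling moved the median of all genes from -0.18 to -0.01 (plasmablasts against activated B cells) and from 0.12 to 0.00 (Blimp1-deficient against control), and the share of calls that are higher from 38.6% to 51.4% and from 60.3% to 47.5%; with GSK343 from 68.5% to 55.1% and between plasmablasts and pre-plasmablasts from 30.6% to 42.4%. It turned the sign of uncalled log2 differences only: between plasmablasts and pre-plasmablasts PU.1 to 0.02 and Elf2 to 0.01, Ets1 between plasmablasts and activated B cells to 0.18, and Gabpa between Blimp1-deficient and control pre-plasmablasts to -0.06.

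Leaving out 1 library at a time also turned signs of uncalled differences, with these ranges. Between plasmablasts and pre-plasmablasts: Spib -0.41 to 0.62, PU.1 -0.18 to 0.07, Elf1 -0.16 to 0.25, Elf2 -0.21 to 0.08, Fli1 -0.19 to 0.22, Etv6 -0.01 to 0.02 and Gabpa -0.08 to 0.19. Between plasmablasts and activated B cells: Ets1 -0.13 to 0.09. Between Blimp1-deficient and control pre-plasmablasts: Elf2 -0.24 to 0.07, Fli1 -0.02 to 0.38 and Gabpa -0.04 to 0.17. Between Blimp1-deficient and activated B cells: Elf1 -0.12 to 0.22, Fli1 -0.21 to 0.01 and Elk3 -0.04 to 0.25. With GSK343: Elf1 -0.12 to 0.06, Ets2 -0.14 to 0.05 and Elf2 -0.09 to 0.21. A group left with 1 library was assumed to vary like the others.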
